A study of Mus musculus with 92 samples.

Results

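Livers of 9 female CD-1 mice that received 0 mg/kg HFPO-DA were compared, 4 after 18 months and 5 after 9 months of the study. They were picked from 92 livers in all by sex, dose and duration as the labels give them, with each liver a separate sample and 1 library. The mice were wild type (WT in the labels), of an outbred stock, and gavage was given daily. The agent studied, HFPO-DA, is a short fluorinated ether acid used in making fluoropolymers, and the controls received a dose of 0. The labels give the months on study and not the age of the animals, and the 18-month animals were longer on study, older and sequenced more deeply at once. Differences between the durations therefore cannot be told apart from age, sequencing depth or unlabelled handling. For comparison, 18 livers of females at 0.05 and 0.1 mg/kg (4 and 5 a duration) and 9 livers of male controls (4 at 9 months and 5 at 18 months) were used. Sections of fixed, paraffin-embedded liver were scraped from slides and measured by TempO-Seq, a targeted assay in which pairs of DNA probes are ligated on a transcript and the ligated products are sequenced. Alb, the serum albumin of hepatocytes, was detected in every library, from 1274 to 20710.5 CPM (a gene's counts scaled to the library size, with TMM factors).

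Hepatocytes make most of the proteins of blood plasma. Clotting factors, complement, metal carriers and protease inhibitors are translated on the endoplasmic reticulum (ER), folded there by chaperones and protein disulfide isomerases, given sugar chains and sent out of the cell. Enzymes of lysosomes and many membrane enzymes, among them cytochromes P450, glucuronosyltransferases and liver carboxylesterases, begin on the same ribosomes of the ER. When unfolded proteins build up there, cells raise the ER chaperones through an ER stress element in their promoters. In an acute phase response, cytokines raise part of the plasma proteins, such as serum amyloid A and fibrinogen. In the ageing liver, changes in inflammation, matrix, lipid handling and lymphocyte number have been described.

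The 9-month libraries held 5166394 to 6546745 counts and the 18-month libraries 11083295 to 17245725, a ratio of 2.53 between the means (two-sided exact permutation p = 0.0159, the smallest that 5 against 4 livers can give). The 10 genes with most counts took 8.46% to 12.4% of a 9-month library and 12.9% to 24.95% of an 18-month library. Another 18-month control (replicate 3) had 403108 counts and was left out, and results with it are in the closing section. Across genes, libraries of the same duration correlated at 0.904 to 0.966 (Pearson's r of log CPM) and libraries of different durations at 0.882 to 0.956. Several livers stood apart in transcripts of other cells. The summed CPM of the B and plasma cell list was 2661 and 2534 in 9-month replicates 1 and 3 and 264.2 to 326.2 in the other 3. That of the red cell list was 1477 and 936.6 against 108.9 to 173.3. At 18 months the B and plasma cell list summed to 396.1 CPM in replicate 1 and to 1348 to 1518 CPM in replicates 2, 4 and 5. The red cell list summed to 109.3 to 328.7 CPM there. In 9-month replicate 4 the interferon list summed to 6198 CPM, against 877.4 to 1303 in the other 9-month livers. In 18-month replicate 4 the acute phase list summed to 233800 CPM, against 36680 to 102700 in the other 3. In bulk tissue, fewer cells of a type and less RNA per cell cannot be told apart.

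Of 10484 genes tested, 740 (7.06%) were called at an adjusted p under 0.05 (edgeR's quasi-likelihood test with Benjamini-Hochberg adjustment). At 18 months 635 (6.06%) were higher and 105 (1%) were lower, and 2296 had an unadjusted p under 0.05. In 769 genes (7.33%) every 18-month liver lay above every 9-month liver, and in 413 (3.94%) every one lay below. This split depended on scaling. TMM (trimmed mean) scaling, used throughout, put the median gene at a log2 fold change of -0.0464, and 85.8% of calls were higher. Scaling to library totals alone put the median gene at -0.61 and gave 345 higher and 2519 lower genes, so that 12% of calls were higher. Fold changes are thus relative to the other genes of the liver. Of the 740 calls, 441 were also called under scaling to library totals. The 89 called genes named here were mostly picked for a large change or a small adjusted p. Of these, 68 passed the test under either scaling, and none of the 89 had its sign reversed. The count was 395 without 18-month replicate 2 and 484 without 9-month replicate 2. A value in brackets after a gene is its log2 fold change ± SE with its adjusted p from the same test, and CPM are given in the order of the replicates. The p-values measure the spread between these animals. Members of a list or family named beyond the rule for named genes were chosen after their values were seen. Each count of calls in a list or family of the control females is to be read beside the 6.06% higher and 1% lower among all genes. Counts at an unadjusted p under 0.05 are to be read beside the 2296 of 10484 genes with one in either direction. Counts under scaling to library totals are to be read beside the 345 higher and 2519 lower.

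Several of the largest rises by the naming rule were in genes of plasma proteins. Fga, the alpha chain of fibrinogen, stood at 884, 1476, 1977, 1455 and 1383 CPM at 9 months and at 4014, 13160.2, 30732 and 5584 CPM at 18 months. All 4 older livers lay above all younger ones, with replicate 4 highest, and its log2 fold change was 3.22 ± 0.55, adjusted p = 0.00573. Fgb, the beta chain, rose by 3.09 ± 0.52. Cp, the ferroxidase ceruloplasmin that carries copper in plasma, went from 1482, 2365, 2825, 2427 and 2288 CPM to 7459, 26490, 39599 and 8011 CPM (3.16 ± 0.50, adjusted p = 0.00359). Its 18-month livers formed a higher pair, replicates 2 and 4, and a lower pair that was still above every 9-month liver. Cfb, factor B of the alternative complement pathway, went from 534, 741, 715, 896 and 826 CPM to 1792, 5768, 4820.4 and 2599 CPM (2.33 ± 0.34, adjusted p = 0.00259). Apcs, serum amyloid P, stood at 77.6, 164, 123, 86 and 145 CPM and 379, 393, 2731 and 432 CPM. Here replicate 4 was more than 6-fold above the next liver, the log2 fold change was 3.05 ± 0.66, adjusted p = 0.0246 and it was 1.75 without that liver. Of the 12 largest rises, Apcs, Slc41a2 and Wfdc2 lost their call without 1 or another liver and the other 9 kept it without any 1.

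**Figure D1:**
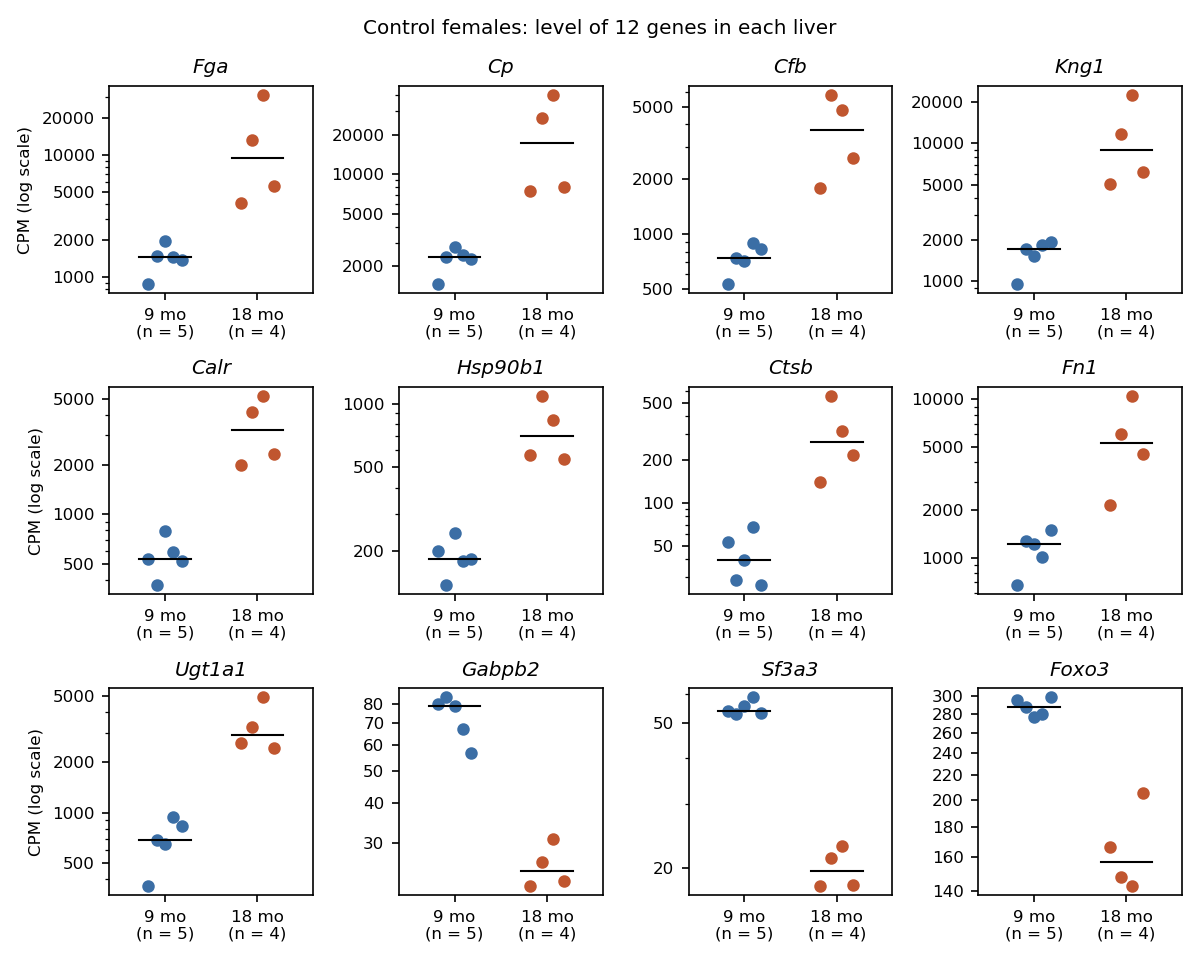
CPM on log axes for 12 genes in each control female liver, 5 at 9 months and 4 at 18 months, with the median of each group as a line. In the 9 upper genes every 18-month liver lies above every 9-month liver, and in Gabpb2, Sf3a3 and Foxo3 every one lies below.

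In the acute phase and complement list, 18 of 30 tested genes were higher and 0 lower, beside 6.06% higher among all genes. The count was 11 without 9-month replicates 1 and 3, the 9-month livers with most B cell and red cell transcripts. The list's median log2 fold change was 2.39 beside -0.0464. The list's summed level was 10490 to 23900 CPM at 9 months and 36680 to 233800 CPM at 18 months. Other members called were Itih4, a protease inhibitor family member cleaved by kallikrein (2.14 ± 0.32), and complement C3 (2.31 ± 0.38). Some members that respond strongly to cytokines missed the test. Saa1, serum amyloid A, stood at 111, 4478, 81.1, 407 and 371 CPM and 217, 2049, 41209 and 1292 CPM, so that the groups overlapped (3.36 ± 1.73, adjusted p = 0.305). Lcn2, an iron-withholding protein of inflammation chosen after its values were seen, was at 10.4, 81.3, 27.8, 32.9 and 10.6 CPM and 28.7, 1913, 2562 and 161 CPM (5.16 ± 1.31, adjusted p = 0.0525). Hamp, the iron hormone hepcidin, overlapped between the groups, with 155, 149, 214, 307 and 121 CPM and 315, 102, 275 and 38.8 CPM. Ccl2, a chemokine that draws monocytes, was at 0.92, 0, 1.28, 0 and 1.69 CPM and 4.46, 10.6, 8.29 and 6.75 CPM (3.23 ± 0.82, adjusted p = 0.0357), and it was the 1 call among 14 tested genes of inflammatory signalling. This call was lost without any 1 of 5 livers, with adjusted p up to 0.115, and the list had 2 calls without 18-month replicate 1. The summed level of the macrophage list was 646.1 to 1225 CPM at 9 months and 607.9 to 2519 at 18 months, and its part in these rises was not tested.

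Genes of plasma proteins grouped in other ways rose as well. These groups are not separate from the acute phase, since fibrinogen is a clotting protein and Itih4 is named for the inter-alpha-trypsin family. A family of clotting, kinin and fibrinolysis genes, chosen after values were seen, had 23 of 27 tested genes higher and 0 lower, with a median log2 fold change of 1.95. Kng1, kininogen, the precursor of bradykinin, went from 964, 1725, 1523, 1834 and 1941 CPM to 5099, 11654, 22196 and 6189 CPM (2.82 ± 0.43, adjusted p = 0.00314). Without any 1 liver, 21 to 24 of the 27 were called. Plg, plasminogen, had 943, 1556, 1825, 1834 and 1912 CPM and 4753, 9417, 10118 and 5737 CPM, with no overlap (2.22 ± 0.31, adjusted p = 0.00236). Serpinc1, antithrombin, had 827, 1044, 1622, 1520.1 and 1472 CPM and 4088, 6395, 5265 and 4269 CPM (1.95 ± 0.27, adjusted p = 0.00206). The 4 clotting genes not called were F8, F11, Klkb1 and Proc, with log2 fold changes of 1.38, 0.89, 1.40 and 0.64. All 5 tested genes of the inter-alpha-trypsin inhibitor family, also chosen after their values were seen, were higher, by 1.998 for Itih2 to 2.50 for Itih3. Ambp, which encodes the family's light chain and alpha-1-microglobulin, went from 2106, 3946, 4328, 3894 and 4394 CPM to 6635, 16826, 36149.7 and 16334 CPM (2.35 ± 0.44, adjusted p = 0.00798). Trf, transferrin, the iron carrier of plasma, went from 3561, 4803, 5590.5, 4812 and 5940.5 CPM to 10439, 27947, 39964 and 17254 CPM (2.27 ± 0.38, adjusted p = 0.00486). Apoe, the apolipoprotein of remnant lipoproteins, went from 12967, 20391, 28943, 24772 and 26422 CPM to 35048, 80311, 85316 and 57285 CPM (1.51 ± 0.37, adjusted p = 0.031), a call lost without any 1 of 8 of the 9 livers. Alb itself rose, from 1274, 1838, 3213, 2500.3 and 2282 CPM to 9454, 20710.5, 6392 and 8550.2 CPM (2.34 ± 0.39, adjusted p = 0.00451).

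Protein-folding genes of the ER rose, while cytosolic chaperones gave no calls under TMM scaling. In the heat shock and ER folding list 6 of 19 tested genes were higher and 0 lower, with a list median of 0.19. The 6 were Hspa5 (BiP), Hsp90b1 (GRP94), Calr (calreticulin), Pdia4, Dnajb9 and Manf, all residents of the ER. Hsp90b1 went from 201, 139, 243, 179.9 and 183 CPM to 574, 1080.3, 831 and 548 CPM (2.002 ± 0.24, adjusted p = 0.00154). Calr, a lectin chaperone, went from 539, 376, 788, 590.4 and 522 CPM to 1993, 4164, 5168 and 2322 CPM (2.60 ± 0.33, adjusted p = 0.00161). Pdia4, a disulfide isomerase, went from 58.2, 51.4, 83.2, 82.1 and 74.3 CPM to 216, 298, 338 and 186 CPM (1.89 ± 0.22, adjusted p = 0.00154). In each of these 3 genes the groups stood well apart, with the lowest 18-month liver more than 2-fold above the highest 9-month liver. Hspa5, chosen after its values were seen, had 1545, 1004, 3028, 1371 and 1233 CPM and 4427, 10133, 10785 and 6125 CPM (2.27 ± 0.38, adjusted p = 0.0051). Of the same list, Hspa8, the cytosolic HSC70, was at 623, 394, 699.8, 382 and 458 CPM and 676, 351, 502 and 798 CPM (0.19 ± 0.27, adjusted p = 0.745), and the groups overlapped. Ddit3 (CHOP), which ER stress raises, had a log2 fold change of -0.85 and was not called, nor was Herpud1 (0.05) or Atf4 (-0.10).

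Further families, chosen after values were seen, hold more genes of these kinds. Of ER disulfide isomerases and lectin chaperones, 16 of 19 tested genes were higher and 0 lower (median 1.30). Pdia6, another isomerase, went from 46.1, 37.4, 41.6, 43.1 and 46.3 CPM to 168, 435, 209 and 236 CPM (2.61 ± 0.25, adjusted p = 0.00154). Of the translocon, oligosaccharyltransferase and signal peptidase, which bring proteins into the ER, add their sugar chains and trim them, 11 of 26 were higher and 0 lower (median 0.78), 6 without 18-month replicate 2. Stt3a, a catalytic subunit that adds the sugar chain, rose by 1.88 ± 0.24 and Ssr1, part of the translocon, by 1.39 ± 0.29. Of the cytosolic chaperonin and cytosolic heat shock proteins, 0 of 21 were called by edgeR in either direction (2 falls at an unadjusted p under 0.05, 0 by DESeq2; median 0.01). The 37 tested proteasome subunits had 1 rise and 0 falls, and the 74 cytosolic ribosomal proteins 0 rises and 1 fall (Rps27, -0.92). The proteasome count was 0 to 2 without any 1 liver. The ribosomal count was 0 without 18-month replicate 2 or 5, 3 without replicate 4 and 12 without replicate 1, and there were 7 falls by DESeq2 and 15 at an unadjusted p under 0.05. Among all genes 6.06% were higher and 1% lower by adjusted p, and 2296 of 10484 had an unadjusted p under 0.05 in either direction. Under scaling to library totals, 2519 of all 10484 genes were lower and 345 higher. Beside these, 6 of the 21 cytosolic chaperones, 6 of the 37 proteasome subunits and 45 of the 74 ribosomal genes were lower. Of the 19 isomerases and lectin chaperones, 13 were still higher.

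Because ER chaperones share the ER stress element, the promoters of the called genes were read for it. The letters searched were CCAAT and CCACG with 9 bases of any kind between them, on both strands, from 250 bases before to 50 after each gene's start, in RefSeq sequences of build GRCm38.p6, and no other motif was searched. The element was in 37 of 27025 gene windows (0.137%). It was in 17 of the 8245 tested genes that had a window (0.206%), in 6 of the 501 genes called higher (1.2%) and in 0 of the 87 called lower. Of the heat shock and ER folding list, 3 of 16 windows held it, and these belonged to Calr, Hsp90b1 and Hspa5, all called. The other called genes with it were Canx, Pdia6 and Creld2. Among tested genes with it that were not called were Dnajc3 (0.94), Syvn1 (0.67) and Alg12 (-0.39). The following stretches, from ER folding genes called higher, were picked because they hold the element, and 11 of the 17 tested genes with it were not called higher. Capitals mark the element, with 20 bases in lower case on either side. All lie before the start of the gene and are written on the strand of the gene. In Calr and in the nearer element of Hsp90b1 the capitals are the reverse complement of the letters searched. A match is a run of letters and not a shown binding site.
Hspa5: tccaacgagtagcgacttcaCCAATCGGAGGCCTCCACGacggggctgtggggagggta
Hsp90b1, farther element: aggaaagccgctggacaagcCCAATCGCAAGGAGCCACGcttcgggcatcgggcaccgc
Hsp90b1, nearer element: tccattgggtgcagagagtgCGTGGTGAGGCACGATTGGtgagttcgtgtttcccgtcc
Calr: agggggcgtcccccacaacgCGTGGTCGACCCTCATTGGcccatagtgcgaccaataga
Canx: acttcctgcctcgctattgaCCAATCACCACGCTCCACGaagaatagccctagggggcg
Pdia6: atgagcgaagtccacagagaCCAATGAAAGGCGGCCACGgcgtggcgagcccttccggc
The coordinates are chr2:34772005-34772063 on the plus strand for Hspa5, chr10:86705618-86705676 and chr10:86705513-86705571 on the minus strand for Hsp90b1, chr8:84847055-84847113 on the minus strand for Calr, chr11:50325780-50325838 on the minus strand for Canx and chr12:17266471-17266529 on the plus strand for Pdia6. In Hspa5 the element began 65 bases before the start, and in Hsp90b1 it began 107 and 212 bases before it. Beside these sequences, Hspa5, Hsp90b1, Calr, Canx and Pdia6 changed by 2.27, 2.002, 2.60, 1.58 and 2.61 on the log2 scale. Creld2, which holds the element too, had 209, 105, 217, 83.1 and 77.4 CPM and 346, 486, 285 and 300.1 CPM (1.36 ± 0.34, adjusted p = 0.0357), with 9-month replicates 1 and 3 above the other 9-month livers.

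Lysosomal genes formed another group of rises. Ctsb, the protease cathepsin B, went from 53.4, 29, 39.7, 67.8 and 26.7 CPM to 139, 552, 314 and 216 CPM (2.82 ± 0.42, adjusted p = 0.00366). Its lowest 18-month liver was about 2-fold above its highest 9-month liver. In a family of cathepsins and lysosomal hydrolases, chosen after values were seen, 27 of 46 tested genes were higher and 0 lower (median 1.41). Among all genes 6.06% were higher. Without any 1 liver, 20 to 33 of the family were higher. Lipa, which splits cholesteryl esters and triglycerides in the lysosome, had 36.9, 62.2, 72.7, 66 and 55.4 CPM and 179, 499, 263 and 212 CPM (2.30 ± 0.30, adjusted p = 0.00206). Tpp1, a peptidase of the lysosome, rose by 1.84 ± 0.21, and Lamp1, a protein of its membrane, by 1.59 ± 0.20. Many of these genes are also high in macrophages, whose list had 0 of 18 genes called by edgeR (6 rises at an unadjusted p under 0.05, 2 by DESeq2) and a median of 0.84. In the macrophage list all 18 fold changes were positive. The part of those cells was not tested.

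Enzymes that act on foreign compounds and steroids rose as well. Ugt1a1, which joins bilirubin to glucuronic acid, went from 367, 684, 648, 948 and 827 CPM to 2606, 3229, 4879 and 2429 CPM (2.24 ± 0.31, adjusted p = 0.00215). All 18-month livers were more than 2-fold above the highest 9-month liver. In the list of targets of the receptors CAR, PXR and AhR, 7 of 23 tested genes were higher and 0 lower (median 1.40). Cyp2c29, a CAR-responsive cytochrome P450, went from 229, 396, 532, 741 and 724 CPM to 2329, 2519.5, 1987 and 2796 CPM (2.20 ± 0.32, adjusted p = 0.00264). Cyp1a2, an AhR target that oxidises caffeine, went from 43, 57.5, 106, 125 and 91.2 CPM to 240.3, 338, 225 and 379 CPM (1.80 ± 0.30, adjusted p = 0.0053). Ugt1a6a rose by 2.06 ± 0.32. The receptors themselves were not called, with log2 fold changes of -0.50 for Nr1i3 (CAR) and -0.38 for Nr1i2 (PXR). Of glucuronosyltransferases and of carboxylesterases, both chosen after values were seen, 10 of 17 and 8 of 14 were higher and 0 lower. The carboxylesterase count was 5 without 9-month replicate 2. Ces1g, an esterase that restrains liver lipid secretion, went from 14.1, 31.3, 20.9, 40.2 and 26 CPM to 171, 472, 112 and 87.9 CPM (2.99 ± 0.52, adjusted p = 0.00939). Transcripts of genes that share exons, such as the Ugt1a genes, and of near-identical genes may be counted on each other's probes, so values that set them apart are uncertain.

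Of bile acid genes, 9 of 21 were higher and 0 lower (median 1.138), and 6 of the 9 were carriers. Slco1b2, which takes up bile acids and bilirubin from blood, went from 53, 122, 122, 153 and 142 CPM to 315, 478, 390.3 and 365 CPM (1.71 ± 0.27, adjusted p = 0.00355). Slc27a5, which activates bile acids for conjugation, rose by 1.59 ± 0.30, and Cyp2c70, which makes muricholic acids in mice, by 1.88 ± 0.27. Cyp7a1, the rate-limiting enzyme of bile acid synthesis, overlapped between the groups, with 149, 123, 127, 288 and 450.1 CPM and 278, 171, 396 and 892 CPM (0.93 ± 0.55, adjusted p = 0.365). Without any 1 liver, 3 to 8 of the bile acid genes were called, 3 of them without 9-month replicate 3.

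Of cholesterol synthesis and uptake, 7 of 25 genes were higher and 0 lower (median 0.51). Sqle, squalene epoxidase, was at 112, 134, 201, 219 and 158 CPM and 349, 713, 448 and 248 CPM (1.42 ± 0.30, adjusted p = 0.0156). Dhcr7 and Sc5d, which act in the last steps of cholesterol synthesis, rose by 1.72 ± 0.32 and 1.43 ± 0.29. Of the 25, 3 were higher under scaling to library totals and 4 without 9-month replicate 1. Of fatty acid synthesis, Elovl5, Scd1 and Fads1 were the 3 rises among 19 genes, with 1 called without 9-month replicate 5 and 1 under scaling to library totals. Without any 1 liver Fads1 kept its call, while Scd1 lost it in 5 of 9 cases and Elovl5 in 4. Scd1, which puts the double bond into stearate, had 73.8, 189, 140, 157 and 116 CPM and 183, 299, 419 and 466.5 CPM, so that the groups overlapped (1.34 ± 0.31, adjusted p = 0.0239). Acsl5, an enzyme that activates long fatty acids, went from 47.5, 54.8, 116, 101 and 86 CPM to 341, 1254, 519 and 613 CPM (3.07 ± 0.40, adjusted p = 0.00206).

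Of 28 genes of peroxisomal and mitochondrial fatty acid oxidation 0 were called by edgeR, with a median of -0.16. At an unadjusted p under 0.05 there were 1 rise and 1 fall, and DESeq2 called 1 rise. Ehhadh, a peroxisomal oxidation enzyme and a target of PPAR alpha, had 396, 499.6, 432, 669 and 555 CPM and 711, 683, 362 and 708 CPM (0.27 ± 0.24, adjusted p = 0.556). Ppara, the receptor, had a log2 fold change of -0.05 ± 0.31, adjusted p = 0.951. Of amino acid breakdown and urea cycle genes 1 of 27 was higher, which was Cps1. Its level, read from 1 probe, also differed between whole dose groups, as given further below. By position in the liver lobule, 7 of 14 periportal genes and 3 of 13 pericentral genes were higher and 0 lower. Their median log2 fold changes were alike, 0.98 and 1.05, and DESeq2 called 7 and 6 of them higher. Among the periportal genes, Pigr, the receptor that carries IgA into bile, rose by 1.75 ± 0.23. Among genes that differ between the sexes, 2 of 31 female-biased and 3 of 20 male-biased genes were higher and 0 lower, beside 6.06% higher among all genes. Without 18-month replicate 1 the male-biased and the pericentral counts were both 5, and without 9-month replicate 5 the male-biased count was 1. Cyp2b9, a female-predominant cytochrome P450, was not called (0.50 ± 0.27, adjusted p = 0.317).

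Matrix genes rose together with a few endothelial genes. Fn1, fibronectin, which hepatocytes also secrete, went from 678, 1269.6, 1222, 1012 and 1488 CPM to 2159, 6050.2, 10432 and 4539 CPM (2.35 ± 0.41, adjusted p = 0.00549). Col4a1, a chain of basement membrane collagen, went from 39.7, 23, 50.3, 26.5 and 28.2 CPM to 59.8, 188, 175 and 107 CPM (1.98 ± 0.34, adjusted p = 0.00626). Dcn, the proteoglycan decorin, went from 57.6, 70.6, 45.3, 75 and 69.9 CPM to 105, 213, 236 and 130.4 CPM (1.43 ± 0.25, adjusted p = 0.00569). In all 3 the groups did not overlap and 18-month replicate 1 was the lowest of its group. In the stellate cell and matrix list 8 of 20 genes were higher and 0 lower (median 1.52), with 5 called without 9-month replicate 2 and 13 without 18-month replicate 1. Its sum was 1245 to 1893 CPM at 9 months and 2662 to 11740 CPM at 18 months. Markers of the stellate cell itself, Lrat (-0.32) and Des (-0.49), were not called, and Col1a1, the main collagen of scar tissue, ran from 4.06 to 230.4 CPM at 18 months (3.08 ± 0.99, adjusted p = 0.109). Of 14 endothelial genes, Kdr, Tek, Oit3 and Fcgr2b were higher and 0 lower, with 1 called without 9-month replicate 3 and 6 without 18-month replicate 1. Oit3, of sinusoidal endothelium, went from 18.7, 16.6, 15.9, 13.1 and 18.8 CPM to 37.1, 62.8, 56 and 24.2 CPM (1.44 ± 0.27, adjusted p = 0.00775). Prom1, a marker of bile duct progenitors, went from 7.89, 6.42, 10.8, 14.2 and 15.5 CPM to 49, 159, 87.3 and 49.2 CPM (2.97 ± 0.40, adjusted p = 0.00238), and it was the 1 call among 4 tested genes of that list.

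Among immune lists, class I antigen presentation had most calls. Of its 13 genes, 5 were higher and 0 lower (median 0.96), with 2 called without 9-month replicate 1, 7 without 18-month replicate 1 and 1 under scaling to library totals. B2m, the light chain of class I molecules, went from 97.7, 138, 138, 169 and 126 CPM to 239, 366, 197 and 333 CPM (1.09 ± 0.22, adjusted p = 0.0112). Erap1, which trims peptides in the ER for them, rose by 1.71 ± 0.29. In the same list the peptide transporter genes Tap1 and Tap2 and the immunoproteasome genes Psmb9 and Psmb10 were not called (-0.72, 0.37, -0.42 and -0.52). Lists of T and NK cells (14 genes), class II presentation (8), the interferon response (22) and neutrophils (7) had 0 calls by edgeR. At an unadjusted p under 0.05 they held 2, 0, 1 and 0 falls and no rise, and DESeq2 called 1 fall, in T and NK cells. Igkc, the kappa light chain of antibodies, was at 442, 13.8, 454, 14.8 and 8.61 CPM and 11.9, 585, 466.4 and 602 CPM (1.16 ± 1.42, adjusted p = 0.692). It was above 400 CPM in 2 of 5 younger and 3 of 4 older livers and under 15 CPM in the other 4. Jchain, which joins antibodies into polymers, divided the same livers, and Cd74, the invariant chain of class II molecules, ran from 126 to 825 CPM and from 85.2 to 869 CPM. The 1 call in the B and plasma cell list was Sdc1 (1.44 ± 0.25), which hepatocytes also express.

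**Figure D2:**
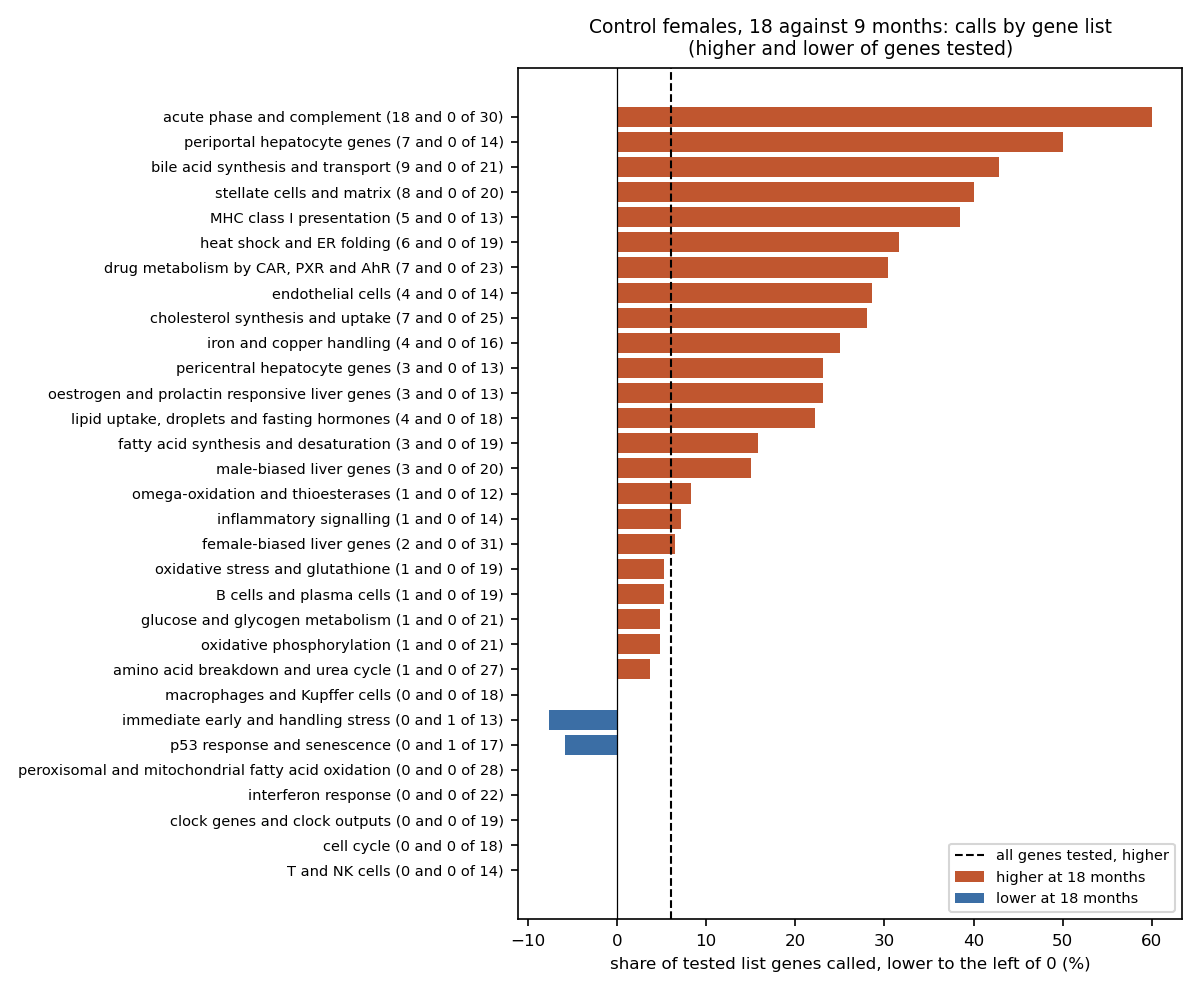
Share of the tested genes of each list called higher (right of 0) or lower (left of 0) at 18 months, in percent, for lists with 10 or more genes tested, with both counts and the number tested in each label. The dashed line is the 6.06% called higher among all 10484 genes. Of the 39 lists, without the families added later, acute phase and complement genes had the largest share drawn, with 18 of 30.

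Falls were fewer and smaller than rises, with a median log2 fold change of -0.82 over the 105 against 1.36 over the 635. None of the 39 lists had more than 1 fall. In them Bax, which opens mitochondria in cell death, and Ier2, an immediate early gene, were the falls called, and these calls were lost without any 1 of 7 and of all 9 livers. Foxo3, a transcription factor of stress resistance, stood at 295, 287, 276, 279.9 and 298 CPM and 166, 148, 143 and 205 CPM (-0.79 ± 0.15, adjusted p = 0.0092). Fgf1, a growth factor, stood at 517, 551, 504, 628 and 500.2 CPM and 337, 286, 316 and 257 CPM (-0.85 ± 0.16, adjusted p = 0.00808). Csk, the kinase that switches off Src kinases, stood at 322, 244, 302, 227 and 262 CPM and 156, 157, 169 and 159 CPM (-0.76 ± 0.15, adjusted p = 0.0113). In these 3 genes each group lay in a narrow band, and the call remained when any 1 liver was left out. Tmem183a kept its call likewise, with 194, 214, 206, 244 and 218 CPM and 154, 89.1, 100.4 and 106 CPM (-0.94 ± 0.18, adjusted p = 0.00937). The larger falls were in genes with low counts. Kcnk10, a potassium channel, stood at 10.1, 16.3, 7.39, 34.9 and 32.2 CPM and 0.133, 4.7, 1.59 and 2.25 CPM (-3.25 ± 0.82, adjusted p = 0.0426), and Car1, a carbonic anhydrase of red cells, was highest in the 9-month replicates 1 and 3 that also held most red cell transcripts (46.4, 7.99, 42.6, 14.5 and 15.4 CPM and then 7.79, 3.17, 2.29 and 5.49 CPM). Of the 12 largest falls, the calls of Gabpb2, Sf3a3 and Zfp180 remained without any 1 liver and the other 9 did not. Of 192 tested zinc finger genes named Zfp, a group chosen after values were seen, 4 were lower and 0 higher, beside 1% lower among all genes. The count was 1 without 9-month replicate 2. Under scaling to library totals 49 of the 192 were lower, a share near that of all genes, of which 2519 of 10484 were lower.

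Sf3a3, a component of the U2 part of the spliceosome, was among the falls with the smallest adjusted p. It stood at 53.8, 52.8, 55.6, 58.7 and 53.2 CPM at 9 months and at 17.9, 21.2, 23 and 18 CPM at 18 months (-1.45 ± 0.16, adjusted p = 0.00154). Gabpb2, a subunit of the transcription factor GABP, stood at 80.2, 83.8, 78.7, 67.1 and 56.6 CPM and 22.3, 26.3, 30.8 and 23 CPM (-1.52 ± 0.18, adjusted p = 0.00154). Gabpb2 has 2 probes in the assay. One of them fell from 33.7 to 58.4 CPM at 9 months to 2.56 to 9.001 CPM at 18 months, while the other stood at 18.9 to 32.4 and 17.5 to 27.4 CPM. The fall of Gabpb2 thus came from 1 probe. In Sf3a3 the other of 2 probes did not pass 4.38 CPM in any of the 9 livers.

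Clock genes (19 tested) and cell cycle genes (18 tested) gave 0 calls by edgeR and by DESeq2. At an unadjusted p under 0.05, 4 clock genes were lower and 0 cell cycle genes changed, beside 2296 of all 10484 genes in either direction. Dbp, an output of the circadian clock, stood at 275, 1232, 62.3, 231 and 1342 CPM and 138, 251, 218 and 443 CPM (-1.26 ± 0.85, adjusted p = 0.44). Arntl, which drives the clock, stood at 1.18, 0.47, 8.35, 3.03 and 0.141 CPM and 4.59, 2.11, 2.56 and 0.54 CPM, and Per1 was not called (-1.49 ± 0.57, adjusted p = 0.152). In these livers Arntl was highest and Dbp lowest in 9-month replicate 3. Hours of collection are not given in the sources used here. Cdkn1a (p21), a marker of cell cycle arrest, stood at 2.1, 1.72, 10.6, 0.159 and 0 CPM and 0.865, 3.29, 2.2 and 1.35 CPM (-0.60 ± 1.09, adjusted p = 0.803), and only 9-month replicate 3 passed 4 CPM.

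**Figure D3:**
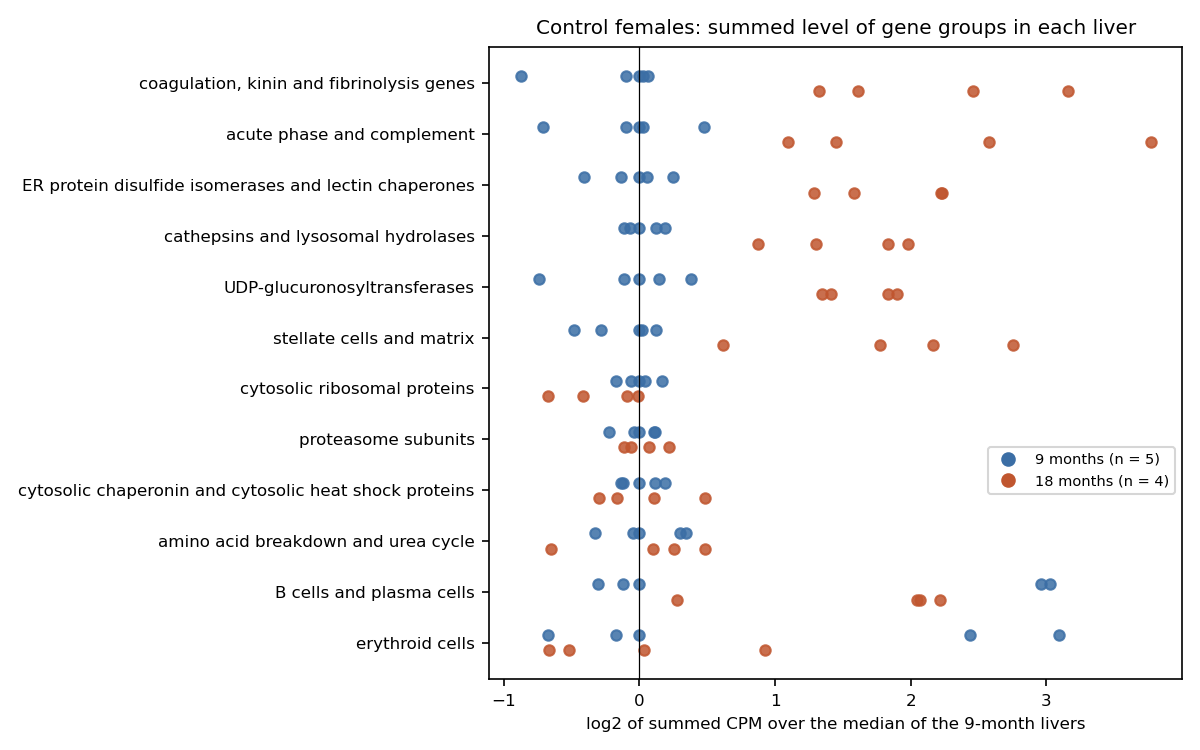
Log2 of the summed CPM of 12 gene groups in each control female liver over the median of the 9-month livers, with 9-month livers in blue and 18-month livers in orange. Groups of secreted, ER and lysosomal proteins lie to the right in every 18-month liver, ribosomal, proteasome and cytosolic chaperone groups overlap, and B cell and red cell groups split the 9-month livers.

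Females at 0.05 and 0.1 mg/kg, which share no animal with the controls, showed the same contrast in 9 livers at each duration. Of 11798 genes tested with dose as a covariate, 741 (6.28%) were called, 537 (4.55%) higher and 204 (1.73%) lower. Of the 635 genes higher in controls, 630 (99.2%) had a positive fold change there and 371 (58.4%) were also called higher, which is 69.5% of the 534 called higher there among genes tested in both. Of the 105 lower in controls, 100 (95.2%) had a negative fold change and 31 (29.5%) were also called, 15.3% of 203. Among all 10468 genes tested in both, 48.1% had a positive fold change there. Changes were smaller: genes higher in controls had a median log2 fold change of 1.36 in controls, where they were selected, and of 0.73 in these females. Over the 10468 genes the Pearson correlation of the log2 fold changes was 0.622 and Spearman's rho 0.615, a description across genes, which are not replicates. Library totals differed with duration in these groups as in the controls.

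In these females some gene groups held as many calls as in controls, others fewer and some more. Fga ran from 1433 to 3055 CPM in the 9 younger livers and from 2525 to 12685 CPM in the 9 older ones (1.64 ± 0.31, adjusted p = 0.00342). Ctsb ran from 35.9 to 68.1 and from 87.9 to 345 CPM (1.85 ± 0.26, adjusted p = 0.00137), with no overlap, and Ugt1a1 from 452 to 1339 and from 1396 to 4235 CPM (1.52 ± 0.22, adjusted p = 0.00137), also with none. Hsp90b1 overlapped, from 196 to 500.5 and from 255 to 866 CPM (1.08 ± 0.23, adjusted p = 0.00773). In the acute phase and complement list 18 of 30 genes were higher there, in the clotting family 22 of 27, in the ER isomerase family 13 of 19 and in the lysosomal family 27 of 46, each with 0 lower. Of the genes called in controls these include 15 of 18, 21 of 23, 13 of 16 and 24 of 27. Fewer were called in heat shock and ER folding (3 of 19), the translocon family (7 of 26), the matrix list (4 of 20) and bile acid genes (3 of 21). Of cholesterol genes 1 of 25 was higher, and of male-biased genes 0 of 20, beside 4.55% higher among all genes there. More were called than in controls among female-biased genes (8 of 31) and in the macrophage list (4 of 18). The same held for fatty acid oxidation (3 of 28) and oxidative phosphorylation (3 of 21), each of these lists with 0 lower. Of the named falls, Sf3a3 ran from 50.2 to 79.6 and from 15.9 to 30.3 CPM (-1.61 ± 0.14, adjusted p = 4.81e-07), Tmem183a fell by 0.51 and Ilrun by 0.54, while Gabpb2 overlapped (-0.49 ± 0.22, adjusted p = 0.215). The single gene called in opposite directions was 2010003K11Rik, which was 2.33 in controls and -1.64 in these females.

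**Figure D4:**
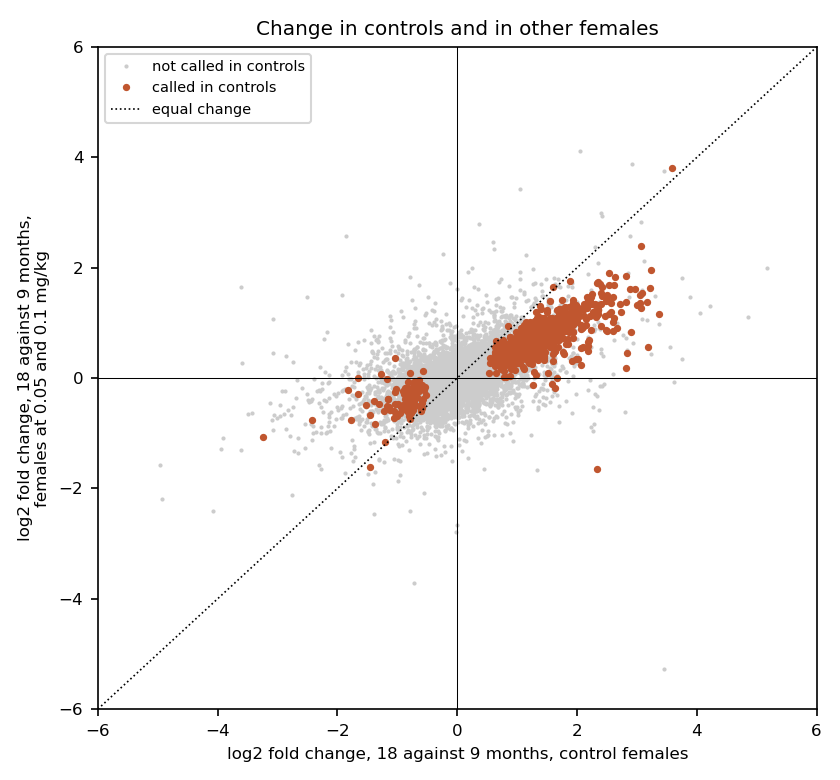
Log2 fold change of 18 against 9 months in control females (horizontal axis) and in females at 0.05 and 0.1 mg/kg (vertical axis), for 10468 genes tested in both, with the 740 called in controls in orange. Of genes called higher in controls 99.2% lie above 0 on the vertical axis, and 1 gene lies outside the axes.

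In male controls the same contrast gave few calls. In 1 fit of both sexes with 11517 genes, 20 (0.174%) were called in males, 7 (0.0608%) higher and 13 (0.113%) lower, and 1034 (8.98%) in females, 761 (6.61%) higher and 273 (2.37%) lower. Most changes had the same direction: 610 of the 635 genes higher in females (96.1%) had a positive fold change in males, where 53.7% of all genes had one, with a median of 0.56. Of them 6 were called in males. Of the 105 lower in females, 97 (92.4%) had a negative fold change in males and 2 were called. Male library totals also differed with duration, from 4929678 to 5577049 at 9 months and from 9234451 to 17638156 at 18 months. Male 18-month replicate 5 stood apart in several named genes, picked here after their values were seen. Cyp2c29 was at 80.3 CPM there (2224 to 4673 in the other 18-month males) and Cyp7a1 at 4.18 CPM (155 to 204). Apoa4 was at 14149 CPM (188 to 634) and Krt18 at 583 CPM (153 to 211). The part of this liver in the male counts was not tested. A difference between the sexes was tested as an interaction. It was called for 4 genes (0.0347%), 3 (0.026%) with the female change above the male one and 1 (0.00868%) below it, and 987 had an unadjusted p under 0.05. The few male calls therefore do not show that male livers changed less.

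The 4 genes were Sf3a3, Fam43a, Cps1 and 2010003K11Rik, with CPM and changes from the fit of both sexes. Sf3a3 changed by -1.45 ± 0.20 in females and stood in males at 45.7, 23.5, 46.8 and 54.4 CPM and 48.8, 63.3, 52.6, 49 and 42.2 CPM (female minus male change -1.72 ± 0.27, adjusted p = 0.017). Fam43a stood in females at 162, 113, 167, 97.9 and 89.6 CPM and 113, 174, 201 and 105 CPM, overlapping, while in males it went from 68.8, 71.1, 105 and 94.2 CPM to 7.44, 8.73, 8.71, 17.8 and 14.5 CPM (female minus male 3.12 ± 0.39, adjusted p = 0.00159). Cps1, which starts the urea cycle in liver mitochondria, rose in females from 15.3, 8.62, 12.3, 22.3 and 17.8 CPM to 37.6, 48.1, 58.3 and 52.3 CPM, and in males stood at 11.5, 17.8, 7.95 and 9.95 CPM and 5.64, 6.69, 6.06, 6.24 and 2.6 CPM (female minus male 2.80 ± 0.42, adjusted p = 0.0131). 2010003K11Rik rose in females from 1.7, 2.98, 3.2, 1.45 and 1.58 CPM to 9.03, 12, 9.69 and 13.3 CPM, and stood in males at 17.4, 26.4, 26.1 and 17.7 CPM and 11.4, 7, 12, 21.2 and 27.1 CPM (female minus male 2.80 ± 0.50, adjusted p = 0.0493). At other doses the levels of these genes also differed between whole groups. In 18-month males at 0.1 mg/kg Cps1 stood at 41.5 to 72.5 CPM, and in 9-month males at that dose 2010003K11Rik stood at 2.91 to 9.16 CPM, with all libraries scaled together. Its medians in 9-month males were 21.8, 11.2, 5.54, 2.69 and 3.87 CPM from 0 to 5 mg/kg, and those of Cps1 in 18-month males were 6.03, 25.6, 43.2, 19.6 and 20.8 CPM. The part of such differences between dose groups in the sex comparison was not tested. Gabpb2 fell in both sexes, in males from 76.5, 66.1, 77.8 and 90.8 CPM to 25, 22.4, 20.3, 24.8 and 20.3 CPM (adjusted p = 3.02e-06).

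**Figure D5:**
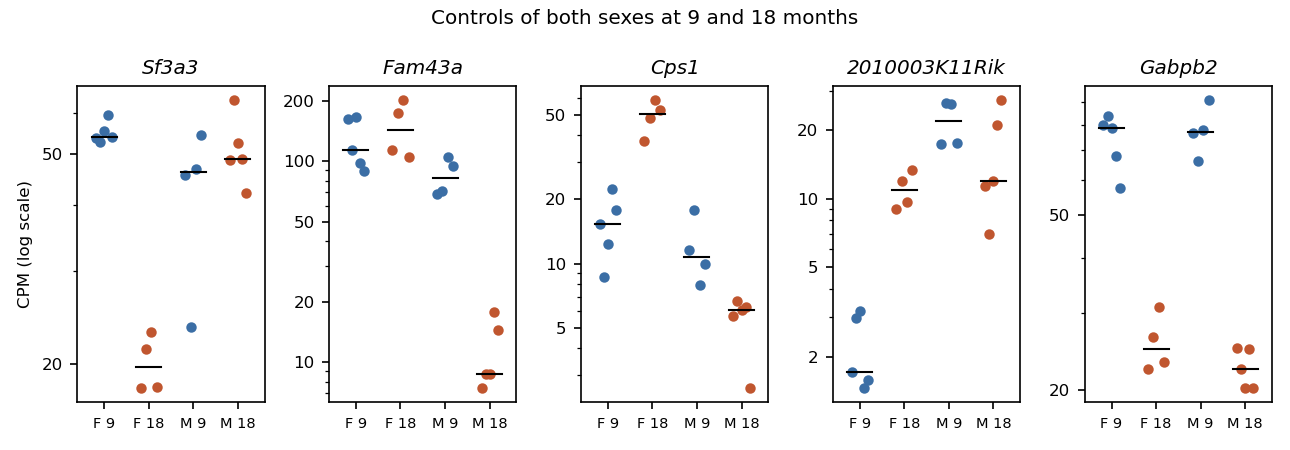
CPM on log axes for the 4 genes whose change differed between the sexes and for Gabpb2, in each control liver (F 9 and F 18, females at 9 and 18 months, n = 5 and 4; M 9 and M 18, males, n = 4 and 5), with group medians as lines. Sf3a3 lies at 18 to 23 CPM in the 18-month females, below every other liver drawn, Fam43a at 7.44 to 17.8 CPM in the 18-month males, and Gabpb2 is lower in both 18-month groups.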

How the data were processed

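Counts per probe were made before deposit with bcl2fastq 2.17.1.14 and Bowtie, per the submitters' processing notes. The probe manifest, genome build and Bowtie version were not given in the sources used here. Deposited were whole-number counts for 30146 probes in 92 libraries, here summed to 21400 gene symbols (6309 with several probes). Depth sets the precision of each value, and the 9 control female libraries held 5166394 to 17245725 counts (the one left out held 403108). Groups were taken from the labelled sex, dose and duration. Genes passing edgeR's filter for low counts were tested with edgeR 4.0.16 (quasi-likelihood F test, TMM scaling, robust fit) in R 4.3.3, with Benjamini-Hochberg adjustment over all genes tested and a threshold of 0.05. CPM used TMM-scaled library sizes, and the SE was derived from the fold change and its F value. The females at 0.05 and 0.1 mg/kg were fitted with dose as a covariate, and both sexes of controls in 1 fit with an interaction. Depth was compared by an exact permutation test. The fits were also run on counts simulated from the fitted model with its TMM-scaled library sizes. Such counts cannot show how the calls depend on the choice of scaling. Tables and figures used Python 3.11.15, pandas 2.3.3, scipy 1.17.1 and matplotlib 3.10.9.

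Genes were named by rule: the 12 largest rises and falls by fold and the 6 by CPM difference (called, not overlapping, mean of at least 10 counts in both groups), up to 3 called members of each of 39 lists with the smallest adjusted p, the genes differing most between the sexes, and 15 set genes (from Cdkn1a to Ppara). The members and lists were chosen with earlier results of these data known, and 12 further families after the values here were seen. Alternatives were RLE scaling, library totals, other filters, DESeq2 1.42.0, the low library kept in, 1 fit of 91 libraries, thinned counts, single probes, stricter thresholds and each library left out. A few genes that the rule named are not reported here.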

Additional observations from a re-analysis of the deposited data

Results flagged for a closer look

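Some livers stood apart from the others of their group by the gap to the nearest liver relative to the range. This was so in 11 of 200 groups of values for named genes and in 4 of 18 groups of list sums, and chance flags about 1 in 20 groups. In 18-month replicate 4, Apcs stood at 2731 CPM and Saa1 at 41209 CPM, above the rest of the group, and Ehhadh at 362 CPM, below it. In 18-month replicate 2, Dhcr7 (179 CPM), Elovl5 (2001 CPM) and the neutrophil list (250.9 CPM in sum) were high. In 18-month replicate 5, Krt18, a keratin of hepatocytes and bile ducts, was low at 149 CPM, and Zfp180 high at 2.79 CPM. In 18-month replicate 1, Gng10 was high at 2.93 CPM and the B and plasma cell list was low at 396.1 CPM.

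At 9 months, replicate 1 was low in Ambp (2106 CPM). Replicate 2 was high in Saa1 (4478 CPM). Replicate 3 was high in Cdkn1a (10.6 CPM) and in the neutrophil list (435.2 CPM). Replicate 4 was high in the interferon list (6198 CPM).

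The change from 9 to 18 months differed between the sexes, by the interaction test, for 2010003K11Rik (female minus male 2.80 on the log2 scale), Cps1 (2.80), Fam43a (3.12) and Sf3a3 (-1.72).

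The 18-month control left out for its low total held counts of Y-linked genes at 19.8 CPM of its total. In a library of 403108 counts this value rests on few counts. The other control females did not pass 0.743 CPM, and male controls stood at 66.9 to 86.1 CPM. Its label gives a female, and where these counts came from was not tested.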

How the results depend on the processing

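Scaling to library totals gave 345 genes higher and 2519 lower (2864 in all). With counts thinned to the lowest library total, 641 genes were higher and 106 lower, and 700 calls were shared with the main fit. Of the 89 called genes named, 84 kept their call with thinned counts. Without the filter on low counts 62 were lower. DESeq2 gave 326 lower and 1240 in all, and 1 fit of 91 libraries 251 lower. With the low library kept in there were 378 higher and 43 lower (421), and the fold changes of Ankrd33b (1.31) and Cenpv (1.07) reversed. An adjusted p under 0.01 left 279 higher and 11 lower (290). Without 9-month replicates 1 and 3, an alternative chosen after seeing the data, there were 335 higher and 43 lower (378). Without any 1 liver, 374 to 853 genes were higher, 21 to 189 lower and 395 to 1042 called in all, the lowest without 18-month replicate 2 and the highest without replicate 1. Fits without a liver also hold fewer samples, and the causes of these changes in count were not tested. The sex difference gave 42 genes by DESeq2, and 2 (without female 18-month replicate 5) to 13 (without female 18-month replicate 1) without any 1 liver. The females at 0.05 and 0.1 mg/kg gave 1112 by DESeq2, and 484 (without an 18-month liver at 0.05 mg/kg, replicate 4) to 860 without any 1, with 491 without 9-month replicate 3 at 0.1 mg/kg. Of the 89 called genes named, 53 kept their call without any 1 liver. No paired analysis was possible because the labels give no replicate numbers, and the replicate numbers here only name livers in accession order. Depth limits calls for genes of few counts, most at 9 months.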

Other observations

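Some genes that separated the control groups also differed between whole groups at other doses. Sf3a3 stood at 4.05 to 8.91 CPM in 9-month males at 0.1 mg/kg, at 23.4 to 54.2 CPM in 9-month male controls and at 43.4 to 49.4 CPM in 9-month males at 5 mg/kg. In 9-month females it stood at 51.98 to 66.7 CPM at 0.1 mg/kg and at 7.32 to 22.4 CPM at 5 mg/kg. Gabpb2 stood at 21.5 to 43.2 CPM in 9-month females at 0.1 mg/kg, against 57.6 to 84.9 CPM in the 9-month female controls, and at 51.1 to 62.4 CPM in 18-month females at 5 mg/kg. Fam43a, low in 18-month male controls (7.58 to 18.2 CPM), stood at 54.8 to 65.6 CPM in 18-month males at 0.1 mg/kg. Cps1 stood at 2.625 to 6.72 CPM in 18-month male controls and at 41.5 to 72.5 CPM in 18-month males at 0.1 mg/kg. In 9-month males 2010003K11Rik stood at 17.3 to 26.2 CPM in controls and at 2.91 to 9.16 CPM at 0.1 mg/kg. These CPM come from scaling all libraries together, so they differ slightly from those of the comparisons. They are given as values only, and neither a dose effect nor a batch was tested for them.

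Other named genes that were called are given as values. Krt18, a keratin of hepatocytes, rose by 0.97 on the log2 scale and Ghr, the growth hormone receptor, by 1.35, and both kept their call without any 1 liver. Krt8 (0.86), Igf1 (0.64) and Golm1 (2.02) were called as well, but lost the call without any 1 of 7, 8 and 8 of the 9 livers.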
